A study of Mus musculus with 20 samples.

Results

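The common injury response is described here as the mean effect of 3 kinds of acute kidney injury on each gene of the mouse kidney cortex, with the question of which genes moved by a like amount in all 3. All 20 libraries of the series enter it, each from 1 mouse. They are 8 controls, 4 ischemia-reperfusion injuries (IRI, 24 h), 4 rhabdomyolysis injuries (24 h) and 4 cisplatin injuries (72 h). Every group is wild type, of strain C57BL/6 (C57BL/6J in the protocol text) and 8 weeks old, so no genotype separates controls from injured mice. The controls are labelled mock, while the series describes them as mock and vehicle animals together. In IRI the renal blood flow is stopped and restored, in rhabdomyolysis damaged muscle releases myoglobin into the blood, and cisplatin is a platinum drug that damages DNA and is taken up by the tubule. The procedures are not described further in the sources used here, each injury was sampled at 1 time, and cisplatin was sampled later than the others, so the kind of injury and the time cannot be told apart. Library identifiers fall into 2 ranges. Controls 1 to 4 share theirs with IRI, and controls 5 to 8 share theirs with rhabdomyolysis and cisplatin, so each injury was set against the 4 controls of its own range. The rhabdomyolysis and cisplatin effects therefore share their controls.

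As background, most of the RNA of the cortex comes from proximal tubule cells, which reabsorb filtered solutes and draw their energy from mitochondrial oxidation of fatty acids, ketone bodies and amino acids. Injured tubule cells are known to lose apical transporters and metabolic enzymes, to flatten and spread with a rebuilt cytoskeleton, and to express stress and repair genes such as Havcr1, Lcn2 and Sox9. The tissue is bulk cortex, in which fewer cells of a type and less RNA per cell cannot be told apart.

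Expression is given in CPM, read counts per M (mega) reads of a library size whose definition is not given in the sources used here. The deposited table is a selection of 6025 genes, each of which lies 1.5-fold or more from the mean of the controls in 1 or more of the injuries. Of these, 5672 had a mean of at least 1 CPM and were tested, and 353 were left out. H2-Q10 and Pf4 were the genes just above that minimum, at 1.00 and 1.01 CPM, and Il18rap and Gng7 were just below it, at 0.998 and 0.997 CPM. Libraries hold 3.48 to 5.40 M reads in the table, and the table covers 55.3% to 70.6% of the effective size of the control libraries but 42.1% to 48.3% in the injured ones. An effect is a difference of mean log2(CPM + 1) between an injury and its controls, a scale that understates the change of genes with few reads. The common effect is the mean of the 3 effects.

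The common effect passed the threshold (limma, adjusted p below 0.05) in 5650 of 5672 genes. It was higher in 2989 genes (52.7% of those tested) and lower in 2661 (46.9%). The table was already a selection of changed genes, so a call alone says little about any member. Size and evenness were therefore described instead. A gene is called unlike in size where the 3 effects differ (adjusted p below 0.05 for equality of the effects) and the largest and smallest effect lie at least 1 log2 unit apart, and 1884 genes (33.2%) met this. It is called alike where the common effect is at least 1 log2 unit in size and the 95% intervals of all 3 differences between effects lie within 1 log2 unit of 0. There were 412 alike genes, 198 that rose (3.49% of genes tested) and 214 that fell (3.77%). Under 75th percentile scaling the split was 263 that rose and 168 that fell, and with all 8 controls taken as 1 group it was 262 and 329. Every one of the 412 was also called in each of the 3 injuries, and in 401 all 12 injured libraries lay outside the 8 controls. Alike does not mean equal, since the effects differed (limma adjusted p below 0.05 for equality) in 146 of the 412. Oxgr1 and 1110032F04Rik were just inside the margin, where the widest interval reached 1.00 and 0.999 log2 units, and Scrn3 and Cmklr1 were just outside it.

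**Figure D1:**
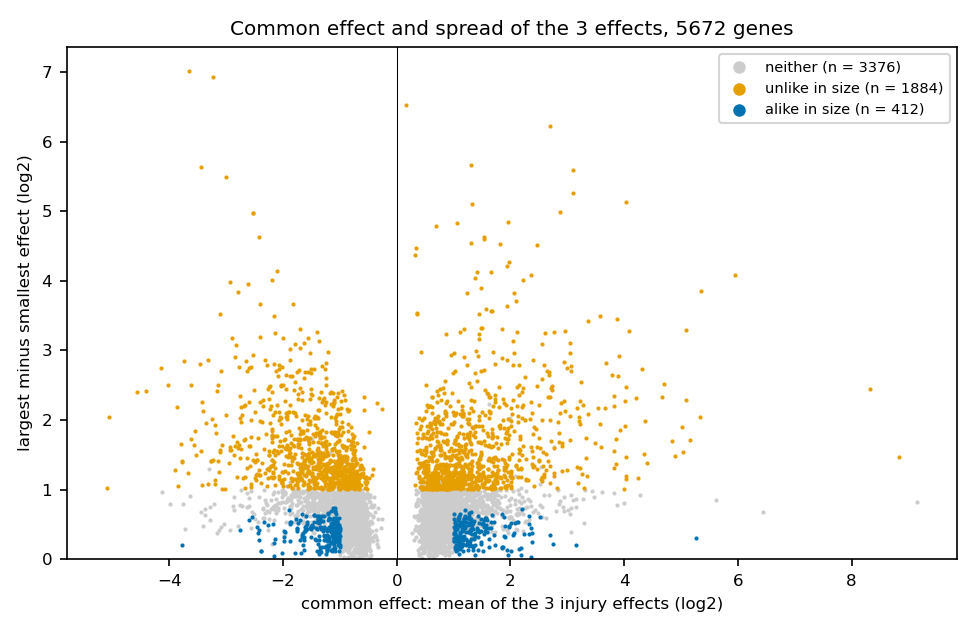
Common effect of each of the 5672 genes tested (x axis, log2) against the distance between its largest and smallest injury effect (y axis, log2). Each point is 1 gene, and the 412 alike genes lie low and mostly close to a size of 1, while the 1884 unlike genes start at a distance of 1.

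Large common effects were seldom even. Of the 2527 genes with a common effect of at least 1 in size, 16.3% were alike, 50.1% were unlike and 33.6% were neither. Among genes that rose by 1 to 1.5 log2 units 21.2% were alike, and the share was 12.4% at 1.5 to 2, 10.6% at 2 to 3 and 2.11% at 3 or more, where 2 of 95 genes qualified. Among genes that fell the shares were 23.5%, 12.2%, 7.08% and 1.45%, with 1 of 69 genes in the last class. The median distance between largest and smallest effect widened over the same classes, from 0.86 to 1.71 in risers and from 0.89 to 1.43 in fallers. A fixed margin on the log2 scale is proportionally narrower for a large effect. A further 37 of the 164 genes with a common effect of 3 or more spanned less than 1 log2 unit without meeting the interval rule. Havcr1, which encodes the tubular injury marker KIM-1, is 1 of them. Its effect was 9.64 for IRI, 8.96 for rhabdomyolysis and 8.83 for cisplatin, with control values of 1.66 to 4.89 CPM against 1156 to 4062 CPM in injured libraries.

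**Figure D2:**
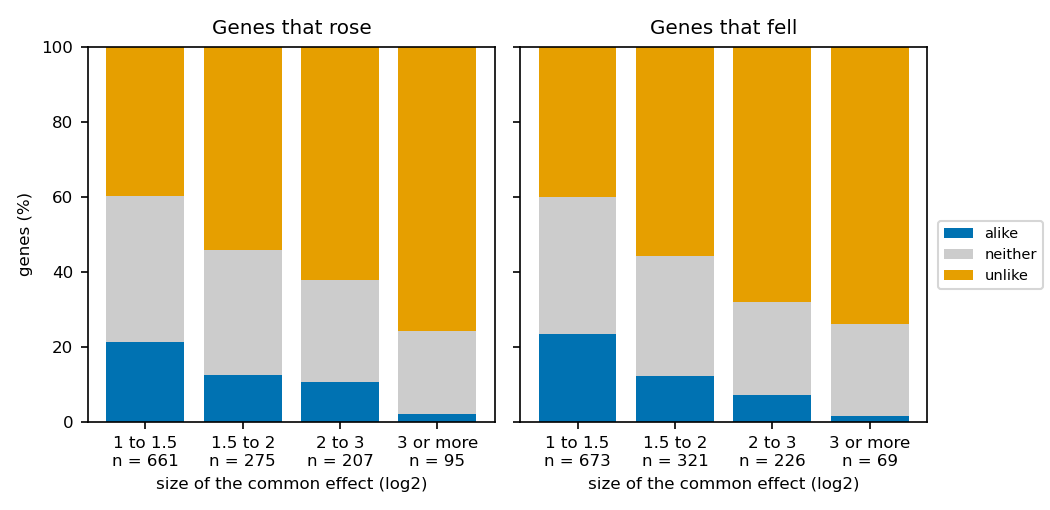
Share of genes (y axis, %) that were alike, unlike or neither, by size of the common effect (x axis, log2 classes), for genes that rose (left) and fell (right). The alike share goes from 21.2% to 2.11% in risers and from 23.5% to 1.45% in fallers.

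The unevenness had a recurring direction. In unlike genes that rose by at least 1, the IRI effect had a median of 1.06, the rhabdomyolysis effect 2.02 and the cisplatin effect 1.96, and IRI gave the smallest effect in 72.9%. In unlike genes that fell, the medians were -1.04, -2.37 and -1.45, and rhabdomyolysis gave the largest fall in 76.6%. Alike genes had medians of 1.23, 1.38 and 1.34 where they rose and -1.14, -1.39 and -1.22 where they fell. Alike risers were also more abundant in controls, with a median of 25.1 CPM against 4.12 CPM in unlike risers, while fallers of both kinds were near each other (77.0 and 79.0 CPM). Of the risers of that size with a control mean below 10 CPM, 7.23% were alike, against 25.1% from 10 to 100 CPM and 52.6% above. In fallers the same shares were 23.5%, 13.9% and 17.2%, so the share grew with abundance in risers and not in fallers. The identifier range goes with IRI, and what part it has in the smaller IRI effects cannot be told apart.

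The upstream sequence of 5 of the 24 largest alike genes is shown, 3 that rose and 2 that fell. Each gene has 1 start site among the RefSeq promoters used. The stretches are the 250 bases before that start site in GRCm38.p6, the build named for the deposited values. They run 5′ to 3′ on the strand of the gene. For Chrnb1 and Slc9a8 the start site used lies inside the gene as RefSeq locates it (chr11:69784036-69795966 and chr2:167421599-167477000). Part of these 2 stretches, with the Chrnb1 match at -10 and the Slc9a8 match at -58, therefore lies within the gene. Capitals mark matches on either strand to the motifs named after them.
Akr1b8 (rose, chr6:34353896-34354145, plus strand): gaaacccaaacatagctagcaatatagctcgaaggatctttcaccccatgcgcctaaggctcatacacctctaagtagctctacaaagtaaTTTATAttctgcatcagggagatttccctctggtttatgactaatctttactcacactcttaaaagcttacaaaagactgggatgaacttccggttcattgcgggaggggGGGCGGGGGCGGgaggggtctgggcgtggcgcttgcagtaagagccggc
Chrnb1 (rose, chr11:69795938-69796187, minus strand): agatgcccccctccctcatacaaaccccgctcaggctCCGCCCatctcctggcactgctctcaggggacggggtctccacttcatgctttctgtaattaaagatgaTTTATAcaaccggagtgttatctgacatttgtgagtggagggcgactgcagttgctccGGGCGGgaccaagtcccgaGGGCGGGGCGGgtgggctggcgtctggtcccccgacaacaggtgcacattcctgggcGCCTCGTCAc
Tubb2a (rose, chr13:34078009-34078258, minus strand): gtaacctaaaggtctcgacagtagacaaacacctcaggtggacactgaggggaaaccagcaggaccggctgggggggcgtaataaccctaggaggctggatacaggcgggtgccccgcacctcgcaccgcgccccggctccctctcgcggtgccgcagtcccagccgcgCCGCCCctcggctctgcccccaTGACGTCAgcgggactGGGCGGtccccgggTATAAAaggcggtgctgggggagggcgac
Slc9a8 (fell, chr2:167421460-167421709, plus strand): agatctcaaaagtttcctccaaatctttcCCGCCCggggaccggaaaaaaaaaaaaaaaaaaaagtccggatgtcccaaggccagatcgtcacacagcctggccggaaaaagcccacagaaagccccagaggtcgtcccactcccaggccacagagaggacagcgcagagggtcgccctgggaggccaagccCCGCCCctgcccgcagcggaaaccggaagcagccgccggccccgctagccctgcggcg
Oxct1 (fell, chr15:4026178-4026427, plus strand): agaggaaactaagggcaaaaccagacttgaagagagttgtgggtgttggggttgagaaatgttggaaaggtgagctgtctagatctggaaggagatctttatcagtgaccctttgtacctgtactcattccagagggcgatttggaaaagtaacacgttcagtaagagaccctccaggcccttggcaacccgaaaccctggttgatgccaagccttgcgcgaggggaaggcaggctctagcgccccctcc
The GC box (GGGCGG) occurs in 4 of the 5 stretches, in 32.7% of all 32851 RefSeq stretches of this length and in 54.0% of the 5636 that belong to genes tested. The TATA box (TATAAA) is present in Akr1b8, Chrnb1 and Tubb2a and in 12.4% of all stretches, and only in Tubb2a does it start near the gene, at -29. Tubb2a also has the cAMP response element (TGACGTCA) at -59, which 1.55% of all stretches hold. Chrnb1 has the antioxidant response element (TGACNNNGC) on the other strand at -10, against 10.2% of all stretches. The AP-1 site (TGANTCA), held by 6.75% of all stretches, is in none of the 5. Nor is the CCAAT box (CCAAT), held by 33.8%. The HNF4 motif (CAAAGTCCA) is in none of the 5 and in 0.383% of all. GC boxes overlap each other in Chrnb1 and abut in Akr1b8, and no match overlaps one of another motif. A match describes the letters and not binding, and Oxct1 has none of these letters in this stretch. RefSeq stretches were matched for 164 of the 198 alike risers, 169 of the 214 alike fallers and 4437 of the 5672 genes tested, which is under 80% of the fallers and of all genes, so a comparison of motif or GC content between the sets is void.

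Among risers, Akr1b8, an aldo-keto reductase that reduces aldehydes (chr6:34354146-34368461), had the largest even rise. Control libraries held 1.48 to 2.54 CPM with a median of 1.98. Values were 105, 114, 98.3 and 82.5 CPM in IRI, 101, 102, 125 and 110 CPM in rhabdomyolysis, and 95.1, 168, 161 and 121 CPM in cisplatin. No injured library came near the controls, and the injuries overlapped one another. The effects were 5.15, 5.17 and 5.45, and the common effect was 5.26 ± 0.11 (SE, limma adjusted p = 9.2e-21).

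Chrnb1, a subunit of the muscle type nicotinic acetylcholine receptor (chr11:69784036-69795966), was the only other alike gene to rise by more than 3. Its controls held 2.56 to 3.62 CPM (median 3.19). IRI libraries held 37.9, 34.8, 31.6 and 37.6 CPM, rhabdomyolysis libraries 38.0, 36.4, 38.5 and 37.2 CPM, and cisplatin libraries 32.3, 34.0, 46.9 and 31.5 CPM. All 12 injured values thus fell in a narrow band far above the controls. The common effect was 3.15 ± 0.08 (SE, limma adjusted p = 6.25e-19). The skeletal muscle markers fixed for this work are all outside the table, so their levels were not analysed here.

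Car13, a cytosolic carbonic anhydrase (chr3:14641727-14663002), was the most even riser with a common effect of at least 2. Control values ran from 3.59 to 6.73 CPM with a median of 4.01. IRI gave 26.1, 30.6, 27.6 and 26.7 CPM, rhabdomyolysis 24.0, 29.2, 28.4 and 22.5 CPM, and cisplatin 21.6, 30.2, 31.9 and 23.1 CPM. The 3 injuries could not be ordered, with effects of 2.37, 2.34 and 2.37 that span 0.03 log2 units. The 95% intervals of the differences between injuries reached 0.50 log2 units.

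The remaining large risers included Ccr1 (common effect 2.76), a chemokine receptor of myeloid cells, Tubb2a (2.70), a beta tubulin, Plp2 (2.51), a membrane proteolipid, and Ppm1j (2.37), a protein phosphatase. Fblim1 (2.37) encodes a filamin-binding adaptor at cell contacts, Tsc22d1 (2.37) a transcription regulator, Golm1 (2.34) a Golgi membrane protein, B4galnt1 (2.33) a ganglioside-synthesizing enzyme and Arpc1b (2.33) a subunit of the Arp2/3 complex that branches actin. With 1 library left out at a time, Ccr1 was alike in 10 and Arpc1b in 11 of 20 fits. Ccr1 is so low in controls that its common effect was 4.75 with a pseudocount of 0.1 in place of 1, where it was no longer alike. Plp2 and Arpc1b were not alike after quantile normalization, nor was Arpc1b under 75th percentile scaling. Other risers with closely spaced effects were Tmsb10 (2.02, effects within 0.11), which binds actin monomers, and Calml3 (2.15, within 0.15), a calmodulin-like protein. Slc6a19os (2.19, within 0.06) lies antisense to a transporter gene, and since the strand setting of the counting is not given in the sources used here, reads of the pair cannot be told apart. It is also near 0 in controls, and with a pseudocount of 0.1 its common effect was 4.30 and it was no longer alike. Ccr1 had 0 to 0.985 CPM in controls and 4.09 to 11.6 CPM in injured libraries, beside neutrophil markers that rose (7 of 7), and the part of recruited cells in it was not tested.

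**Figure D3:**
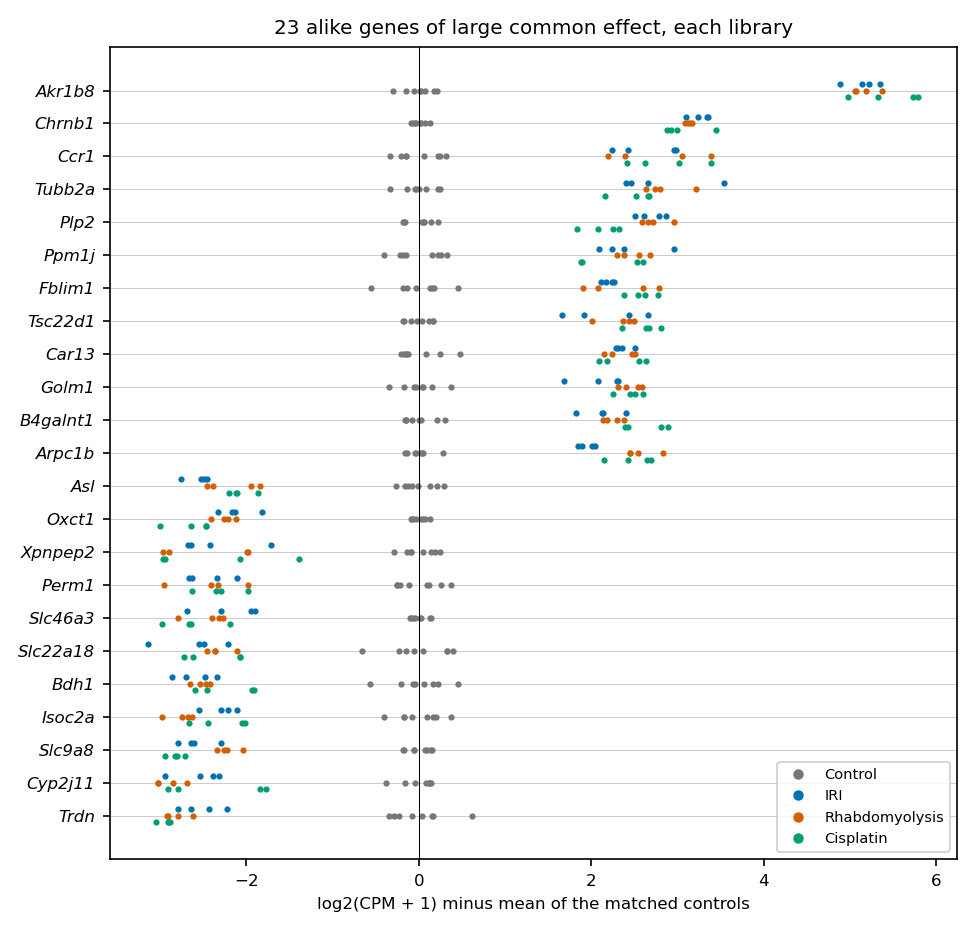
Each library's log2(CPM + 1) minus the mean of its matched controls (x axis) for 12 alike risers and 11 alike fallers of large common effect (y axis). Points are single libraries of the 8 controls, 4 IRI, 4 rhabdomyolysis and 4 cisplatin mice, and no injured point reaches the controls of its gene.

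Among fallers, Oxct1, the mitochondrial enzyme that activates ketone bodies for oxidation (chr15:4026428-4155344), held 1761 to 2100 CPM in controls (median 1927). IRI libraries held 395, 442, 455 and 565 CPM, rhabdomyolysis libraries 388, 403, 350 and 428 CPM, and cisplatin libraries 337, 232, 300 and 337 CPM. All 12 lay far below the controls, with cisplatin lowest. The common effect was -2.34 ± 0.08 (SE, limma adjusted p = 9.82e-17). Bdh1, which interconverts the ketone bodies acetoacetate and hydroxybutyrate, fell beside it with a common effect of -2.45. Ketone body enzymes were not a list of this work, and the pair was noticed after values were seen.

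The most even large faller was Ppp1r1a, an inhibitor of protein phosphatase 1. Controls ran from 152 to 196 CPM with a median of 177. Injured libraries ran from 33.9 to 45.4 CPM, so each group sat in nearly the same band. Its effects were -2.14, -2.20 and -2.15, a span of 0.05, with a common effect of -2.16 ± 0.07 (SE, limma adjusted p = 1.36e-17). Cndp2, a cytosolic dipeptidase, followed with a common effect of -2.02 and effects that spanned 0.09. After quantile normalization that common effect was -1.25.

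Other large alike fallers were Trdn (-2.76), known as a sarcoplasmic reticulum protein and low here with a control median of 6.93 CPM, and Cyp2j11 (-2.59), a cytochrome P450 with close relatives. Slc9a8 (-2.54) is a sodium/proton exchanger, Slc22a18 (-2.43) and Slc46a3 (-2.43) are transporters, and Xpnpep2 (-2.39) is a membrane aminopeptidase. Of the 20 fits that each leave out 1 library, Xpnpep2 was alike in 3, Cyp2j11 in 4 and Trdn in 11, so these calls of evenness depend on single libraries. With a pseudocount of 0.1 none of these 3 was alike, and the common effect of Trdn was -4.73. Isoc2a (-2.45), Perm1 (-2.39), a regulator of oxidative metabolism known from muscle, and Asl (-2.27), argininosuccinate lyase, were alike too. Perm1 was not alike with a pseudocount of 0.1, nor were Slc9a8 and Slc46a3 after quantile normalization. Slc9a8 shows what the margin allows, since its effects of -2.59, -2.22 and -2.82 differed (limma adjusted p = 3.58e-04) and still met the interval rule.

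Functions were read from 27 lists, in which 885 genes of the table were members and 70 were alike. Among all genes tested, 7.26% were alike, 33.2% were unlike and the median common effect was 0.49. Among the 2527 genes with a common effect of at least 1 in size, 50.1% were unlike. In 22 of the 27 lists rhabdomyolysis had the largest median effect, and in 18 IRI had the smallest. The counts below describe the lists and carry no test of the list. In them rose or higher, and fell or lower, refer to the common effect. Over all genes tested, 2004 were called higher and 2091 lower in each of the 3 injuries. Higher in each were 29 of 45 ribosome biogenesis, 13 of 20 unfolded protein, 20 of 33 p53 and 22 of 35 cell cycle genes. So were 22 of 37 junction and keratin genes and 48 of 55 of actin, myosin and adhesion. Lower in each were 7 of 15 mitochondrial ribosomal, 49 of 53 amino acid breakdown and 12 of 12 gluconeogenesis genes.

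Nearly all genes of amino acid breakdown fell, and 9 of its 11 alike genes belong to 1 route. Of 53 genes, 52 fell and 1 rose, with a median common effect of -1.91. Of the 50 with a size of at least 1, 11 were alike (22.0%, against 16.3% of all genes of that size), and 28 of the 53 were unlike. The alike genes included Asl and 9 enzymes of a single route, the breakdown of branched-chain amino acids and of the propionyl-CoA formed from them. These are Bcat2, the transaminase, Bckdha, Bckdhb and Dbt, subunits of the branched-chain ketoacid dehydrogenase, Mccc1, Acadsb, Pcca, Pccb and Mut. All 16 listed genes of the route fell, with a median of -1.54, and 2 were unlike (Aldh6a1 and Acad8). The route was picked out after values were seen. Under 75th percentile scaling 12 genes of the list were alike (7 of them among the 11), and after quantile normalization 12 (8 of them among the 11). In the route 8 genes were alike under each of these scalings. Of the 9, Bckdha, Bckdhb, Mccc1, Acadsb and Mut met the rule in every fit that left out 1 library, with both scalings and with a pseudocount of 0.1.

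Mccc1, a subunit of the biotin enzyme of leucine breakdown, had 166 to 240 CPM in controls with a median of 180. It had 54.4, 59.0, 55.5 and 70.9 CPM in IRI, 46.5, 48.9, 49.0 and 55.5 CPM in rhabdomyolysis, and 58.2, 45.6, 47.0 and 57.4 CPM in cisplatin. The injuries overlapped and none reached the controls, with effects of -1.75, -1.83 and -1.78. Bckdha differed more, with effects of -1.82, -2.17 and -1.65 from controls of 300.3 to 479 CPM. Outside the route, Gatm, which makes the creatine precursor, and Acmsd, of tryptophan breakdown, fell further (-3.90 and -3.87) but were unlike, with IRI the smallest fall of each.

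The citric acid cycle and respiratory chain fell by less than amino acid breakdown, with fewer genes past the fixed distance of 1 log2 unit between effects. Of 85 genes 84 fell, with a median of -0.87 (-0.45 after quantile normalization), and 9 were unlike. The median span between effects was 0.59, against 1.12 in amino acid breakdown, whose median common effect was larger (-1.91). Of 19 that fell by at least 1, 13 were alike (68.4%), while among all genes that fell by 1 to 1.5 the alike share was 23.5%. These genes are abundant, with a control median of 479 CPM and a median SE of 0.18 for the difference between the IRI and rhabdomyolysis effects, against 0.24 over all genes that fell by at least 1, and the part of that precision in the count was not tested. The count also moved with the scaling, with 8 alike genes under 75th percentile scaling (6 of them among the 13) and 2 after quantile normalization (1 of them among the 13). The 13 included Idh3b, Idh3g, Suclg2, Sucla2, Sdha and Mdh1 of the cycle and the shuttle around it, Ndufs1 of complex I, Uqcr11, Uqcrc2 and Uqcrfs1 of complex III, and Atp5a1 and Atp5b, the catalytic core of ATP synthase. Atp5b held 3305 to 5192 CPM in controls and 1472 to 2324 CPM in injured libraries, with effects of -1.05, -1.23 and -0.89, and its common effect of -1.06 was -0.29 after quantile normalization. Complex I as a whole (31 genes, all lower) had a median of -0.87, and cytochrome c oxidase (12 genes, 11 lower) -0.70, and after quantile normalization these medians were -0.60 and -0.20. Cox6b2, a testis-type isoform, was the 1 gene with a higher common effect, though not in all 3 injuries. It held 33.6 to 53.6 CPM in cisplatin and 0.887 to 1.93 CPM in rhabdomyolysis, against 1.93 to 2.80 CPM in controls 5 to 8. In IRI it held 3.93 to 8.50 CPM, against 1.88 to 3.66 CPM in controls 1 to 4.

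**Figure D4:**
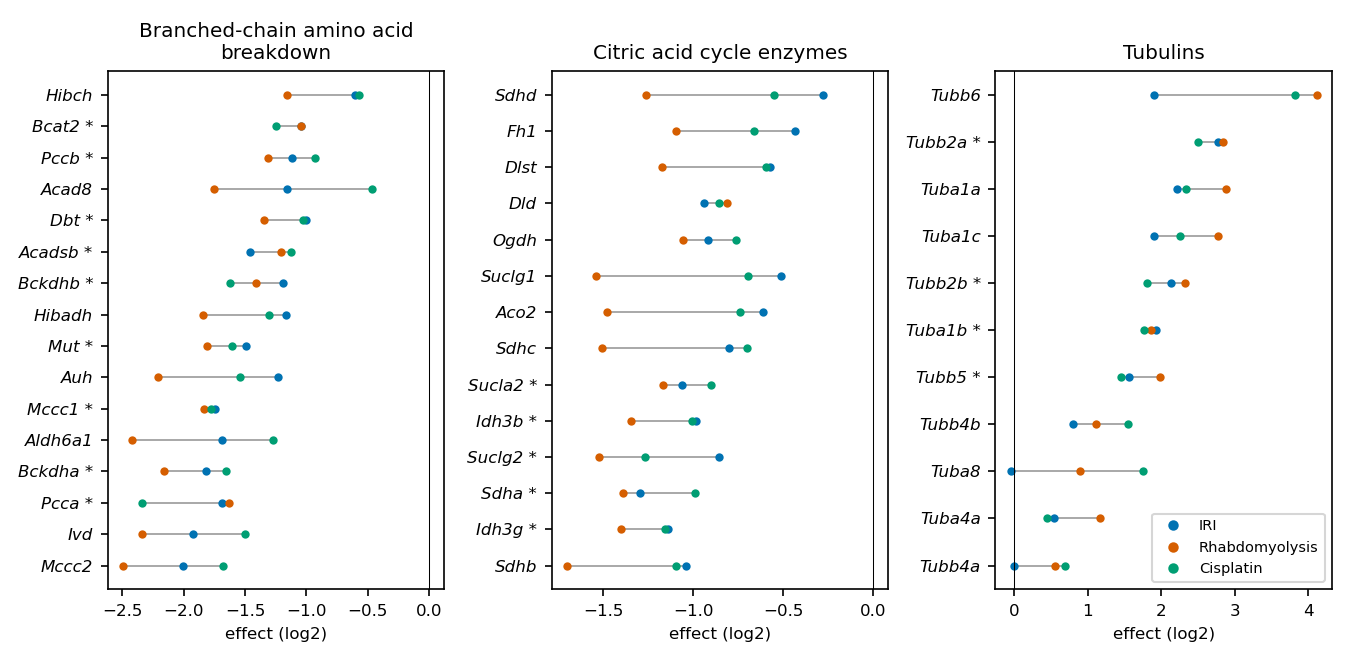
Effects of IRI, rhabdomyolysis and cisplatin (x axis, log2) for each listed gene of branched-chain amino acid breakdown (16), the citric acid cycle (14) and the tubulins (11), ordered by common effect; an asterisk marks alike genes. Every metabolic gene lies below 0 in all 3 injuries, and Tubb2a, Tuba1b, Tubb2b and Tubb5 lie between 1.45 and 2.85.

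Other proximal tubule functions also fell, and in each of these lists but the brush border peptidases most genes were unlike. Of members with a size of at least 1, 80.9% were unlike in transport and endocytosis, 60.7% in fatty acid oxidation and 66.7% in gluconeogenesis. The shares were 36.4% in brush border peptidases and 77.8% in the transcription regulators, against 50.1% of all genes of that size. Of 50 genes of transport and endocytosis 46 fell (median -1.90), 39 were unlike and 3 were alike: Slc22a18, Slc22a4 and, rising, the efflux pump Abcc4. Under 75th percentile scaling and after quantile normalization 2 of these 3 stayed alike. All 34 genes of fatty acid oxidation and the peroxisome fell (median -1.41), with 19 unlike and 3 alike (Etfa, Phyh and Acsl1). None of these 3 was alike after quantile normalization. Gluconeogenesis and fructose metabolism fell in 12 of 12 genes, with 8 unlike and Akr1a1 alike. After quantile normalization the common effect of Akr1a1 went from -1.61 to -0.83 and it was no longer alike. Brush border peptidases fell in 11 of 11, with 4 unlike and 3 alike (Ace, Mme and Xpnpep2, whose call was lost in most fits that left out 1 library). After quantile normalization 1 of these 3 stayed alike. The unlike genes included Mep1b (-4.02), a meprin subunit. Of 16 transcription regulators of the proximal tubule all fell, and Ppargc1a, a coactivator of mitochondrial genes, was alike (-0.94, -1.40 and -1.09). It was no longer alike with a pseudocount of 0.1 or after quantile normalization. Hnf4a, which maintains proximal tubule identity, was not alike, at -0.48 in IRI, -3.34 in rhabdomyolysis and -1.82 in cisplatin.

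Beside these lists, all 12 proximal tubule markers fell. Their summed level was 31282 to 56042 CPM in controls, 10366 to 16321 in IRI, 8905 to 10513 in rhabdomyolysis and 5638 to 9546 in cisplatin. The median effect of the 12 markers was -1.56 in IRI, -2.84 in rhabdomyolysis and -2.30 in cisplatin, so sum and median order the injuries differently. The markers are not separate from the lists, since Miox is also in that of gluconeogenesis and fructose metabolism. Markers of the loop of Henle and distal tubule also fell in 7 of 7, from a summed 2856 to 4962 CPM in controls to 537 to 1021 CPM in injured libraries. What part a smaller share of tubule RNA has in the falls was not tested.

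On the rising side, the actin, myosin and adhesion list held more alike risers than any other of the 27 lists. Of its 55 genes 50 rose and 5 fell, with a median of 1.31. Of the 32 that rose by at least 1, 11 were alike (34.4%, against 16.0% of all such genes), and 13 of the 55 were unlike. These 32 are more abundant than risers in general, with a control median of 59.2 CPM against 7.00 CPM and a median SE of 0.21 against 0.27 for the difference between the IRI and rhabdomyolysis effects. Among all such risers with a control mean of 10 to 100 CPM 25.1% were alike, and the part of precision in the list's count was not tested. The 11 were the tropomyosins Tpm1, Tpm3 and Tpm4, the myosin light chain Myl12a, the actin regulators Cfl1, Tagln2, Arpc1b and Tmsb10, the laminin receptor chains Itga6 and Itgb1, and Plec, a linker to the cytoskeleton. Tropomyosins wrap actin filaments, and all 4 listed rose (1.21 to 2.20), with none unlike (1 under 75th percentile scaling, after quantile normalization and with a pseudocount of 0.1). The number of alike tropomyosins, 3 here, was 2 under 75th percentile scaling and 1 after quantile normalization. Of 14 integrins 11 rose and 6 were unlike, so the pair Itga6 and Itgb1 did not stand for the family.

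Itga6 had 46.4 to 123 CPM in controls (median 82.4). Its values were 270.4, 269, 269.6 and 263 CPM in IRI, 390.2, 376, 333 and 363 CPM in rhabdomyolysis, and 295, 386, 441 and 286 CPM in cisplatin. IRI libraries were the lowest of the injured. Controls 1 to 4, to which they were compared, held 46.4 to 83.1 CPM and controls 5 to 8 held 79.8 to 123 CPM, and the effects were 1.97, 1.87 and 1.79.

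Tubulins, the subunits of microtubules, rose in 11 of 11 listed genes, with 4 alike (Tuba1b, Tubb2a, Tubb2b and Tubb5) and 2 unlike (Tuba8 and Tubb6). After quantile normalization 2 tubulins were alike and 3 unlike. Tuba1b had 126 to 177 CPM in controls with a median of 152. It had 581, 561, 582 and 615 CPM in IRI, 639, 546, 593 and 453 CPM in rhabdomyolysis, and 495, 547, 548 and 497 CPM in cisplatin. The injuries overlapped, with effects of 1.93, 1.85 and 1.77. Tubulin genes are close copies of each other, above all Tubb2a and Tubb2b, so reads may be split between them and single values are uncertain. In the whole list of 29 annexins, S100 proteins and tubulins 27 rose, with Anxa5 the 1 alike annexin of 7.

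**Figure D5:**
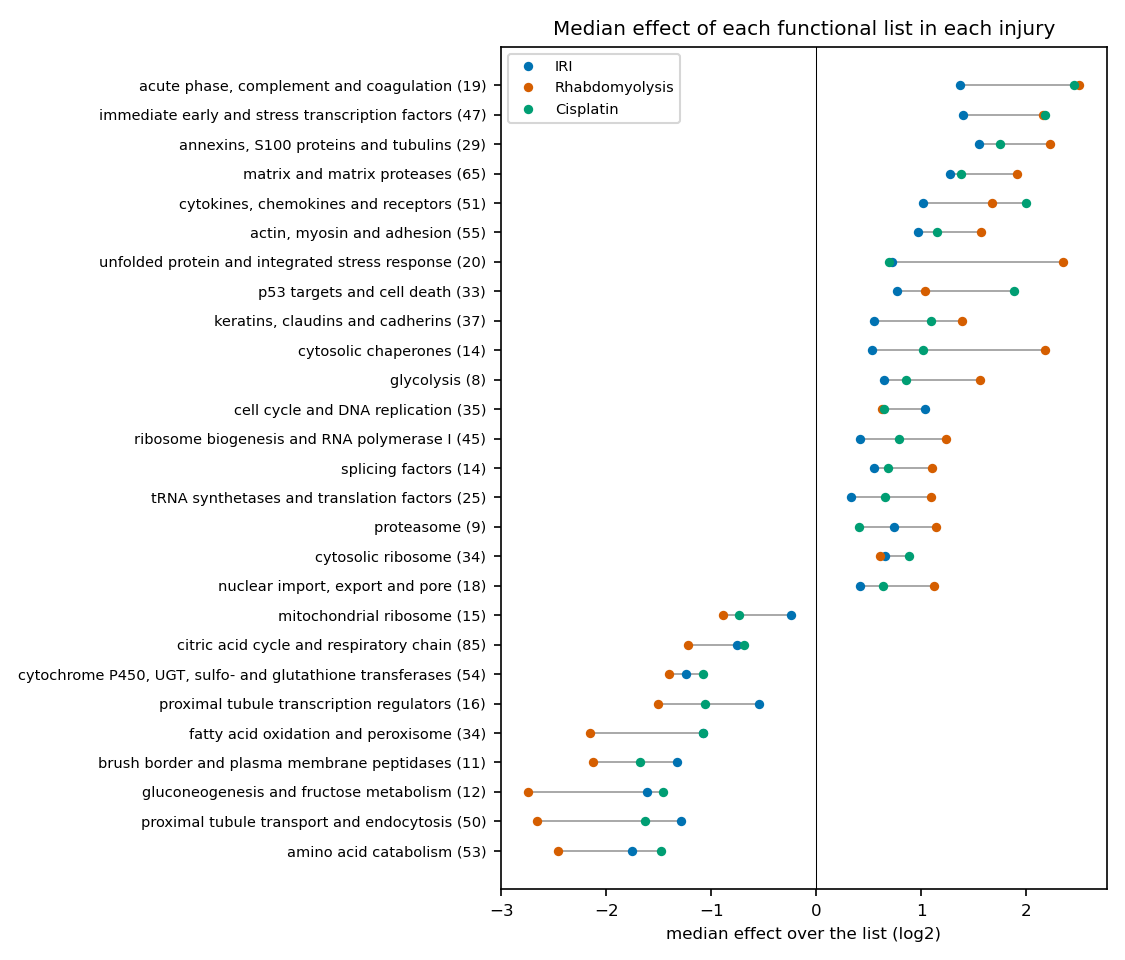
Median effect over each of 27 functional lists (y axis, number of genes tested in brackets) in IRI, rhabdomyolysis and cisplatin (x axis, log2), joined by a line. Lists of metabolism other than glycolysis lie below 0 and lists of stress, matrix and cytoskeleton above it, and unfolded protein and chaperone genes span the widest distances among the rising lists.

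Stress and defence lists rose, with few alike genes. All 47 immediate early and stress transcription factors rose (median 1.95), 26 were unlike and 3 were alike. These were Cebpb, Bcl3 and Elf3, regulators of inflammatory and epithelial genes. Cebpb had effects of 1.98, 1.96 and 1.92, from 8.34 to 25.2 CPM in controls to 44.8 to 94.2 CPM in injured libraries. Fosl1 and Atf3, AP-1 and stress factors, rose further (5.35 and 4.32) and were unlike, with Fosl1 at 8.52 for a pseudocount of 0.1. Sox9, named in the series title, had effects of 3.54, 4.74 and 3.83 for IRI, rhabdomyolysis and cisplatin and was unlike, as was Vgf with 3.27, 5.00 and 3.28, whose common effect of 3.85 was 6.96 with a pseudocount of 0.1. The transcription factors that rose by at least 1 are weak, with a control median of 5.16 CPM, and 8.11% of them were alike, against 7.23% of all such risers with a control mean below 10 CPM. The part of low abundance in the small number of alike genes was not tested.

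All 20 genes of the unfolded protein and integrated stress response were unlike, and 19 rose. Their median effect was 0.72 in IRI, 2.35 in rhabdomyolysis and 0.69 in cisplatin. Cytosolic chaperones were unlike in 12 of 14. In p53 targets and cell death 31 of 33 rose and 22 were unlike, with a median largest in cisplatin (1.88), and Tnfrsf1a and Bcl2l1 were alike. Cytokines and receptors (47 of 51 higher, 28 unlike), matrix genes and proteases (57 of 65 higher, 31 unlike) and acute phase genes (16 of 19 higher, 15 unlike) held 4 alike genes in all, Ccr1, Cx3cl1, Mmp14 and Mmp9. Of the members of these 3 lists with a size of at least 1, 62.5%, 59.6% and 93.3% were unlike. The share was 76.2% in the p53 list and 50.1% in all genes of that size. Beside them, neutrophil markers rose in 7 of 7, with a summed level of 3.24 to 6.09 CPM in controls and 16.9 to 56.7 CPM in injured libraries, macrophage markers in 8 of 9 (87.2 to 127 CPM against 138 to 338 CPM) and fibroblast and mural markers in 7 of 7 (118 to 254 CPM against 276 to 1584 CPM). Markers outside the table were not analysed here. Their part in these lists was not tested.

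Lists of RNA and protein synthesis also rose, with medians below 1 log2 unit. Cytosolic ribosomal proteins were higher in 33 of 34 (median 0.71, but 1.16 after quantile normalization), with 1 unlike gene (2.94%, the lowest share of the 27 lists). Ribosome biogenesis was higher in 45 of 45 (median 0.77) with 21 unlike, and nuclear transport in 18 of 18 (median 0.70) with 3 unlike. The size of 1 that the alike class asks for was reached by 3 of 34, 12 of 45 and 2 of 18 of these genes. Rpl12, Rps12 and Ran were alike, though Ran was not under 75th percentile scaling or after quantile normalization. Of the 34 cytosolic ribosomal proteins, 3 were alike under 75th percentile scaling and 23 after quantile normalization, so their alike count rests on the scaling. In glycolysis 6 of 8 genes rose, and 1 of them, the lactate and ketone body carrier Slc16a1, was alike (2.11, 2.47 and 2.12), though not after quantile normalization, while Pfkm fell and was alike.

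The least even genes that still moved one way in all 3 injuries give the scale of the contrast. Hspa1b, a heat shock protein with a near copy in Hspa1a, had an IRI effect of 0.95, a rhabdomyolysis effect of 6.21 and a cisplatin effect of 2.14. Procr, the protein C receptor, had 0.59, 5.58 and 2.45, and Slc7a11, the cystine transporter, had 3.27, 6.99 and 1.86. Zfp365 was highest in cisplatin (0.69, 1.51 and 5.21). With a pseudocount of 0.1 the common effect of Slc7a11 moved from 4.04 to 6.36 and that of Zfp365 from 2.47 to 4.23. Among fallers, Keg1 and 0610005C13Rik fell most in rhabdomyolysis (-4.90 and -5.15), and the globin genes Hba-a1 and Hba-a2, near copies of each other that mark red blood cells, fell most in cisplatin (-6.40 and -6.77). The 7 red cell genes summed to 1171 to 2970 CPM in controls and 7.60 to 21.5 CPM in cisplatin, and what part the blood left in the tissue has was not tested.

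In terms of RNA mass, the 198 alike risers made up 0.984% to 1.05% of the effective library in controls, 2.47% to 2.53% in IRI, 2.73% to 2.87% in rhabdomyolysis and 2.46% to 2.90% in cisplatin. The 214 alike fallers took 4.64% to 5.76% in controls and 1.55% to 2.28% in injured libraries. These shares describe genes chosen for their change and are no test of it. Of the 412 alike genes, 242 met the rule in each of the 20 fits that left out 1 library, and 118 of those rose and 124 fell. Asking also for the rule with a pseudocount of 0.1, under 75th percentile scaling and after quantile normalization left 145, of which 93 rose and 52 fell.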

How the data were processed

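RNA of kidney cortex was sequenced from 20 mice. Poly-A RNA was selected with beads and stranded libraries were read as 150-bp pairs, per the labels' protocols. FastQC, Bowtie2 2.1.0, RSEM 1.2.15, edgeR and the builds GRCm38 and mm10 are named in the submitters' processing notes, with no role given. The authors deposited 1 table of CPM values, 1 column per mouse, already restricted to changed genes, and the effective library size behind the CPM is not given in the sources used here. In every column 100% of values were whole multiples of 1 step (within 0.01 of a read). The count tests used 19 of the 20 columns and left out cisplatin 2, whose step of 0.101 CPM is close to 0.1, a choice made after seeing the data. Depth is 3.48 to 5.40 M reads in the table, and counting error is smallest for abundant genes.

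Groups follow the sample titles. Replicates are different mice by their labels. Values were taken as log2(CPM + 1), and genes whose mean reached 1 CPM were fitted with limma 3.58.1 in R 4.3.3 (5 groups: each control range and each injury; empirical Bayes with trend), and p-values were adjusted by Benjamini-Hochberg over the 5672 genes, with a threshold of 0.05. The steps were tested on simulated data. The members, the functional and marker lists, and the rules were chosen with earlier results of these data known. Genes named are the 12 largest alike risers and fallers outside the controls, the 4 most even and 4 most uneven each way, the largest 2 each way per list, the genes beside each threshold, and Sox9 and Vgf. Other genes, among them all alike members of the lists, were named after their values were seen. Alternatives were other pseudocounts, minimum means, scalings, margins, control groupings, a replicate block, each library left out, and edgeR 4.0.16 and DESeq2 1.42.0 on the recovered reads. The table holds 13 symbols that look like calendar dates, which were tested and are not named. Some genes that these rules select are not reported here.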

Additional observations from a re-analysis of the deposited data

Results flagged for a closer look

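Single libraries stood apart from the rest of their group in 12 of 156 gene and group combinations examined, where chance alone gives about 7.8 (1 in 20). The number after each is that library's distance from its closest neighbour, divided by the range of the whole group. They are Arpc1b in control 2 (0.586), Chrnb1 in cisplatin 3 (0.835), Cndp2 in rhabdomyolysis 1 (0.899), Hba-a2 in cisplatin 2 (1), Hspa1b in rhabdomyolysis 1 (0.849), Ppp1r1a in IRI 2 (0.865), Procr in rhabdomyolysis 1 (0.895) and in cisplatin 2 (0.932), Trdn in cisplatin 2 (0.83), Tubb2a in IRI 4 (0.842), Vgf in control 2 (1) and Zfp365 in IRI 2 (0.928). Tubb2a reached 307 CPM in IRI 4 against 139 to 166 CPM in the other IRI libraries. Hba-a2 was at 2.02 CPM in cisplatin 2 and at 0 in the other 3 cisplatin libraries.

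The effects of the 3 injuries differed from each other in 10 genes named for uneven effects or by the series title, by limma's test of equal effects. The adjusted p was 4.66e-13 for Procr, 1.21e-12 for Hspa1b, 1.18e-11 for Zfp365, 1.2e-11 for Slc7a11, 1.22e-10 for Hba-a1, 2.63e-08 for Hba-a2, 3.24e-10 for 0610005C13Rik, 2.49e-09 for Keg1, 0.000482 for Sox9 and 0.000406 for Vgf. The first 8 were chosen for their large span, so their p-values describe the choice.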

How the results depend on the processing

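With a margin of 1.5-fold in place of 1 log2 unit, 45 genes were alike (26 higher, 19 lower), so the number of alike genes rests on the margin. Without a minimum span, 3903 genes were unlike, and 2527 had a common effect of at least 1. Leaving out 1 library at a time gave 5622 to 5653 genes for the common effect, 1799 to 1946 unlike and 364 to 468 alike, with 4331 to 4606 called in IRI, 5300 to 5407 in rhabdomyolysis and 5040 to 5227 in cisplatin. With the replicate block the counts were 5655, 1886 and 415. Same-numbered libraries correlated between -0.286 and 0.335 after group means, above 0.1 in 6 of 24 pairs, so the numbers do not pair the mice. Which genes are alike moved with the scaling. Quantile normalization gave 444, of which 256 were among the 412, and moved the median common effect by -0.11; 75th percentile scaling gave 431, with 308 shared and a shift of 0.13. Dividing effects by each injury's median ratio gave 616, with 174 shared. The common effect of Hspa8 (-0.61) was 0.10 after quantile normalization, the only 1 of the 130 genes chosen by the naming rules to change sign, and the cause was not tested. None of the 412 alike genes changed sign. On recovered reads edgeR called 5624 common and 2179 unlike genes, and DESeq2 5623 and 2174. Depth limits weak genes: the median SE of the difference between the IRI and rhabdomyolysis effects was 0.30 in risers with a control mean below 10 CPM and 0.20 in those at 100 CPM or more.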

Other observations

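Further lists moved as follows. Cell cycle and DNA replication genes rose in 31 of 35, and this was the only list of the 27 in which IRI had the largest median effect (1.04, against 0.63 in rhabdomyolysis and 0.64 in cisplatin), with Uhrf1 (2.20) and the helicase subunit Mcm3 (1.35) highest. Of 54 cytochrome P450, UGT, sulfo- and glutathione transferase genes 34 fell and 20 rose, 35 were unlike and 1, Cyp2j11, was alike. Gsta1, a glutathione transferase, rose most (6.45), and Cyp2e1 and Ces1e were among the largest falls (-3.27 and -3.40).

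Junction and keratin genes rose in 31 of 37, with Krt20 highest (8.32) and unlike, and Cgn and Cdh1 alike. Splicing factors were higher in 13 of 14 (1 unlike), proteasome genes in 9 of 9 (4 unlike), and tRNA synthetases and translation factors in 20 of 25 (8 unlike). Mitochondrial ribosomal proteins fell in 12 of 15. Cell type markers could be counted only where the table, itself a selection of changed genes, holds them. Of these, endothelial and podocyte markers rose in 4 of 4 and 3 of 3, with none unlike and none alike. Their median effects ran from 0.46 (IRI) to 1.31 (rhabdomyolysis) for endothelium and from 0.50 (cisplatin) to 0.90 (rhabdomyolysis) for podocytes. Collecting duct markers fell in 3 of 3, with 1 unlike and 1 alike.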
